A study of Mus musculus with 7 samples.

Results

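Basp1, Lrp8, Glipr2 and Naaa are 4 of the 23420 gene rows measured by bulk RNA sequencing in mouse hearts. They were picked by symbol, having been chosen by the wide gap between the normalized counts of the study's 2 groups. The study concerned inflammation of the heart muscle as it can follow immune checkpoint inhibitors (ICI), drugs that block the T cell receptors CTLA-4 and PD-1. All 7 libraries were labelled Pdcd1-/- (both copies of the PD-1 gene altered), controls included. The 4 controls were Ctla4+/+ and the 3 ICI-myocarditis libraries were Ctla4+/-, so the model rests on inherited alleles and no inhibitor was given. Animals were 3 to 6 weeks old and untreated, and RNA came from frozen cardiac ventricle, although the tissue field names the whole heart. The labels do not state that each library is a separate animal, so p-values here measure only the spread between libraries, which may be technical. Where values are given below, heart and diseased heart stand for a library and not for a known separate animal. Because the 4 genes were selected on the difference between the groups, their levels are described here without a test.

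The 4 genes are not known as one pathway. Basp1 encodes a myristoylated protein of the inner plasma membrane that binds calmodulin and acidic lipids, best known from growing nerve endings, and that also acts in the nucleus as a partner of WT1. Lrp8 (ApoER2) is a receptor of the LDL receptor family that binds reelin and apolipoprotein E and signals through the adaptor Dab1. Glipr2 (GAPR-1) is a membrane-bound member of the CAP superfamily of Golgi membranes and a binding partner of Beclin 1, a protein that starts autophagy. Naaa is a lysosomal amidase that breaks down palmitoylethanolamide, a lipid with anti-inflammatory activity, and is well expressed by macrophages. C1qa, a complement gene of tissue macrophages, Postn, the periostin gene of activated fibroblasts, and Cd3e, a chain of the T cell receptor complex, were read beside them.

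In GENCODE M21 (GRCm38, the build named in the submitters' processing notes), Basp1 lies on the minus strand at chr15:25363277-25413764, Lrp8 on the plus strand at chr4:107802261-107876840, Glipr2 on the plus strand at chr4:43957401-43979118 and Naaa on the minus strand at chr5:92257659-92278170. No other annotated gene shares exon bases with any of them, and the antisense genes Lrp8os1 and Lrp8os2 overlap Lrp8 outside its exons. Of all 75-base stretches in their transcripts, 0% for Basp1, Glipr2 and Naaa and 0.00914% for Lrp8 also occur in a transcript of another gene.

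The 250 bases upstream of the start were read from RefSeq (GRCm38.p6) because the 4 genes were high in the same hearts. The sequences of Basp1 (chr15:25413765-25414014, minus strand) and Naaa (chr5:92278182-92278431, minus strand) are shown since these lie outside the annotated exons of their own gene. Capitals mark GC boxes (GGGCGG on either strand) and, in the first capital run of Basp1, a pair of overlapping matches to the NF-kappaB consensus.
Basp1 upstream: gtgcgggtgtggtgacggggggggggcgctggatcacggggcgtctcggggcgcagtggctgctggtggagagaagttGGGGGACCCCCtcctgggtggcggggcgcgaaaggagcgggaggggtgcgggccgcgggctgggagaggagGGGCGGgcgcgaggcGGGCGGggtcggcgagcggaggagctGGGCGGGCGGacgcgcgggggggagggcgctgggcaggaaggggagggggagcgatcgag
Naaa upstream: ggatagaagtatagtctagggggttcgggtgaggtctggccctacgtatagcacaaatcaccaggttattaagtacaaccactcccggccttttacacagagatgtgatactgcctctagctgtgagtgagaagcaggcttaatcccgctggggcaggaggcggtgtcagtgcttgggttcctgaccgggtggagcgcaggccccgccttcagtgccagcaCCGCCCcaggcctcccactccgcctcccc
Basp1 held 4 GC boxes, of which the last 2 overlap, Glipr2 held 3 and Naaa held 1, while the most upstream of the 3 Lrp8 starts held none. None of these 3 starts was the RefSeq start of the gene. The Glipr2 window lay wholly within annotated Glipr2 exons, and 43 bases of the Lrp8 window lay in Lrp8 exons. Matches or their absence in these windows therefore do not describe sequence upstream of the annotated gene. A GC box was present in 32.7% of the 32851 upstream windows of that length. The NF-kappaB consensus was found only in Basp1 among the 4, at 172 to 162 bases before the start, against 7.25% of all windows. The interferon-related ISRE core (2.98% of all windows) and TTCNNNGAA (GAS, 7.02%), searched on both strands, were absent from these windows of all 4 genes, as were GAGGAAG (PU.1, 10.6%) and TGANTCA (AP-1, 6.75%). In these 4 windows base composition ran from 78.8% G and C with 30 CpG in Basp1 to 59.2% with 10 CpG in Naaa, and the windows of the other 2 Lrp8 starts held 52.8% with 5 CpG and 53.6% with 2 CpG, against medians of 52.4% and 6 over all windows. A match is a string of letters and not a measured binding site.

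The libraries held 20931730 to 39037176 reads assigned to genes. Heart muscle was well represented, with 10 cardiomyocyte genes taking 9.69% to 15.03% of normalized counts in controls and 7.04% to 10.7% in ICI-myocarditis. The genotype could not be read from the counts, since a count per gene does not show which exons remain. Ctla4 lay between 29.2 and 113 normalized counts in controls and between 251 and 373 in ICI-myocarditis, and Pdcd1 between 2.50 and 244 and between 1096 and 1481. Control 2 stood apart from the other controls in T cell genes. The sum of 12 T cell genes was 2471 normalized counts in control 2, 416 to 485 in the other 3 controls and 9434 to 14362 in ICI-myocarditis. Of 15258 genes tested with limma, 15.7% passed an adjusted p of 0.05, 11.7% higher and 4.00% lower in ICI-myocarditis. Groups did not overlap, with ICI-myocarditis higher, for 17.3% of genes tested, and did not overlap in either direction for 28.6%.

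All 4 genes were higher in every ICI-myocarditis library than in any control. Normalized counts, which are reads divided by a size factor for each library, are given in the order of the replicate numbers. The fold changes on the log2 scale below are differences of mean log2(normalized count + 1) with limma's standard error. In a piece of heart, more cells of a type and more RNA per cell cannot be told apart.

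**Figure D1:**
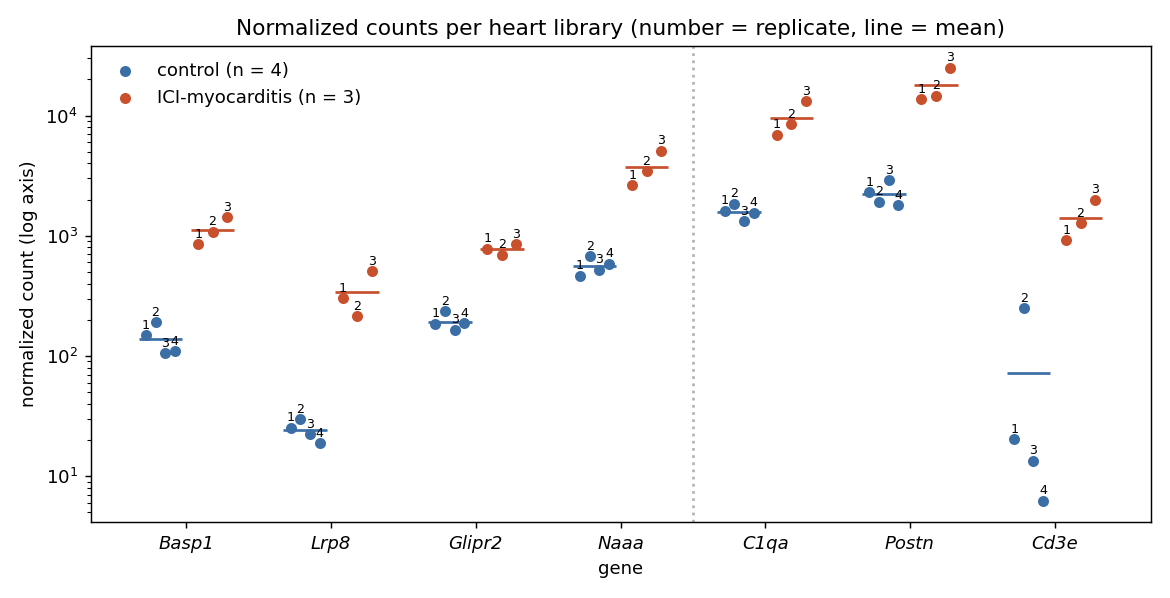
Normalized counts (log axis) of Basp1, Lrp8, Glipr2 and Naaa, and of C1qa, Postn and Cd3e, in each of 4 control and 3 ICI-myocarditis libraries, with the replicate number above each point and the group mean as a line. The lowest ICI-myocarditis library lies above the highest control for all 7 genes, and control 2 lies far above the other controls only for Cd3e.

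Basp1, the membrane and nuclear adaptor, had 149, 190, 105 and 110 normalized counts in controls and 847, 1081 and 1420 in ICI-myocarditis. The lowest diseased heart was 4.46 times the highest control. Group means were 139 ± 39.6 (SD, n = 4) and 1116 ± 288 (SD, n = 3), a log2 fold change of 3.01 (SE 0.279). Control 2 was the highest control, and its 95% Poisson interval of 161 to 222 normalized counts lay above those of controls 3 and 4, which ended at 128 and 136.

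Lrp8, the reelin and apolipoprotein E receptor, was the scarcest of the 4. Its normalized counts were 25.2, 29.6, 22.3 and 18.8 in controls and 302, 214 and 504 in ICI-myocarditis. The control values rest on 25, 24, 20 and 15 reads, and their 95% Poisson intervals overlap one another, from 8.40 to 24.7 reads in control 4 to 16.2 to 36.9 reads in control 1. Differences among controls were therefore not detectable at this depth. The lowest diseased heart was 7.22 times the highest control, and group means were 23.98 ± 4.58 (SD, n = 4) and 340 ± 149 (SD, n = 3). Lrp8 had both the highest log2 fold change of the 4, 3.70 (SE 0.357), and the widest relative spread among diseased hearts, 43.8% of the mean, because ICI-myocarditis 3 was at 1.96 times the mean of the other two.

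Glipr2, the Golgi CAP protein, had the smallest difference between the groups and the smallest relative spread. Its normalized counts were 186, 234, 165 and 188 in controls and 779, 694 and 850 in ICI-myocarditis. Group means were 193 ± 29.2 (SD, n = 4) and 774 ± 77.8 (SD, n = 3), with a log2 fold change of 2.00 (SE 0.202). The relative spread was 15.1% in controls and 10.05% in diseased hearts. The lowest diseased heart was at 2.96 times the highest control, a narrower gap than for the other 3 genes.

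Naaa, the lysosomal amidase, was the most abundant. Its normalized counts were 465, 675, 520 and 586 in controls and 2626, 3457 and 5096 in ICI-myocarditis. Group means were 561 ± 90.3 (SD, n = 4) and 3726 ± 1256 (SD, n = 3), with a log2 fold change of 2.69 (SE 0.250). The lowest diseased heart stood at 3.89 times the highest control. In the authors' deposited table the log2 fold changes were 3.01 for Basp1, 3.83 for Lrp8, 2.00 for Glipr2 and 2.73 for Naaa.

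The separation that chose the genes can be set on a common scale. The difference of the group means divided by the pooled SD within groups, both on the log2 scale, was 10.7 for Glipr2, 8.34 for Lrp8, 7.76 for Basp1 and 7.63 for Naaa, against a median of 1.12 over genes tested. These ratios ranked 5, 22, 39 and 44 among 15258 genes. C1qa and Postn had almost the same separation, 7.51 and 7.64, at ranks 49 and 43. Cd3e, with a ratio of 3.18, ranked 1603, although its log2 fold change of 5.61 exceeded that of each of the 4 genes, because the controls spanned 6.26 to 250 normalized counts.

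Control 2 was the highest control for all 4 genes and for C1qa, and ICI-myocarditis 3 was the highest diseased heart for all 4 and for C1qa, Postn and Cd3e. Control 2 reached 1.56 times the mean of the other controls for Basp1, 1.34 for Lrp8, 1.31 for Glipr2, 1.29 for Naaa and 1.23 for C1qa. The same ratio was 18.9 for Cd3e and 0.820 for Postn. Without control 2 the log2 fold changes were 3.18 for Basp1, 3.80 for Lrp8, 2.10 for Glipr2 and 2.78 for Naaa. This order was common, since control 2 was the highest control for 35.3% of all genes tested and for 74.2% of genes called higher, and ICI-myocarditis 3 was the highest diseased heart for 41.0% and 75.4%.

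Per kilobase of annotated exon, which allows levels to be compared between genes, Naaa was highest in controls at 151 ± 24.3 normalized counts per kb, followed by Glipr2 at 83.3 ± 12.6, Basp1 at 69.0 ± 19.7 and Lrp8 at 2.28 ± 0.436 (SD, n = 4). The ranges of mean ± SD of Glipr2 and Basp1 overlapped in controls, although within each control Glipr2 was the higher per kb. In ICI-myocarditis the order was Naaa at 1001 ± 338, Basp1 at 555 ± 143, Glipr2 at 334 ± 33.5 and Lrp8 at 32.3 ± 14.2 (SD, n = 3). Basp1 thus lay above Glipr2 in the diseased hearts. Basp1 per Glipr2 was 0.804, 0.811, 0.635 and 0.587 in controls and 1.09, 1.56 and 1.67 in diseased hearts, a ratio of normalized counts that does not depend on the scaling of libraries. Basp1 per Naaa was 0.188 to 0.321 in controls and 0.279 to 0.323 in diseased hearts, so the groups overlapped. C1qa reached 1523 ± 211 and 9170 ± 3133 normalized counts per kb. The lengths count every annotated exon and will understate genes with rarely used exons.

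Ratios to C1qa, Postn and Cd3e within each library separated the 4 genes from one another. Naaa followed C1qa most closely. Naaa was at 28.7%, 36.5%, 39.6% and 37.7% of the C1qa count in controls and at 38.0%, 40.6% and 38.6% in ICI-myocarditis. The mean log2 ratio of Naaa to C1qa differed by 0.14 between the groups, within the control SD of 0.207.

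Basp1 was somewhat higher, and Glipr2 lower, per C1qa in the diseased hearts, with narrow gaps between the groups. The nearest control for Basp1 was control 2 (154 reads, 95% Poisson interval 131 to 180). For Glipr2 it was control 1 (184 reads, 158 to 213). These intervals are wider than the gaps. Basp1 was at 7.09% to 10.3% of C1qa in controls and at 10.8% to 12.7% in diseased hearts, a log2 difference of 0.47. Glipr2 was at 11.4% to 12.7% of C1qa in controls, the steadiest ratio of the set with an SD of 0.0680 on the log2 scale, and at 11.3%, 8.16% and 6.44% in ICI-myocarditis 1, 2 and 3. In these hearts Glipr2 itself ran only from 694 to 850 normalized counts, while C1qa ran from 6919 to 13186. The order of this ratio therefore follows mostly from its denominator.

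Lrp8 departed most from C1qa, from 1.21% to 1.70% of C1qa in controls to 2.51% to 4.36% in diseased hearts, a log2 difference of 1.21. ICI-myocarditis 1 and 3 were at 4.36% and 3.82% and ICI-myocarditis 2 at 2.51%. Against Postn, Lrp8 was at 0.767% to 1.54% in controls and 1.46% to 2.20% in diseased hearts, and the groups overlapped through control 2 and ICI-myocarditis 2. The log2 ratio of Basp1 to Postn differed by 0.05 between the groups, with a control SD of 0.598 against 0.235 for its ratio to C1qa. Ratios to Cd3e spread widely in controls, where controls 1, 3 and 4 had only 20, 12 and 5 Cd3e reads. The log2 ratio to Cd3e differed by -2.68 for Basp1, -1.95 for Lrp8, -3.69 for Glipr2 and -3.01 for Naaa, and its SD was between 1.95 and 2.18 over controls and as low as 0.0777 over diseased hearts, for Naaa. Naaa was at 285%, 271% and 256% of Cd3e in ICI-myocarditis and at 269% in control 2.

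**Figure D2:**
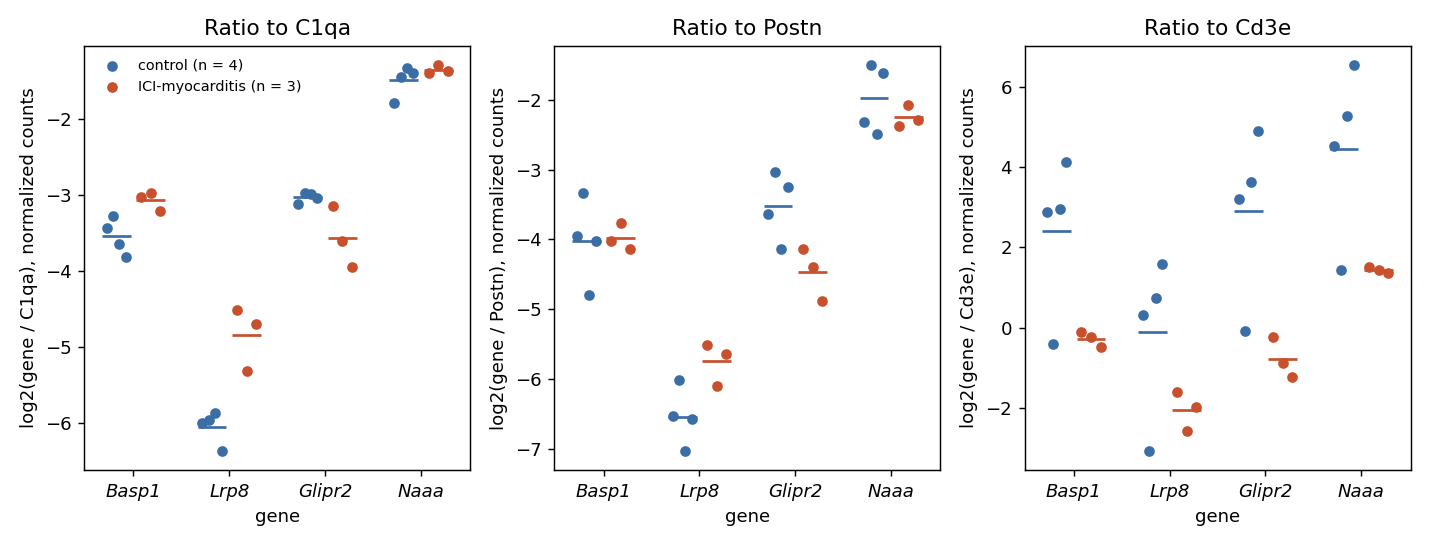
Log2 ratio of Basp1, Lrp8, Glipr2 and Naaa to C1qa, Postn and Cd3e within each library, with 4 control and 3 ICI-myocarditis points and the group mean as a line. Naaa per C1qa overlaps between the groups. Lrp8 and Basp1 per C1qa lie higher and Glipr2 per C1qa lower in ICI-myocarditis, for Basp1 and Glipr2 by gaps within counting error. Ratios to Cd3e spread over several log2 units in controls.

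Likeness over the 7 libraries was measured as the root-mean-square distance between log2 profiles, each centred on its own mean, where 0 is the same shape. Libraries of a group share genotype and disease, so any gene with a like fold change lies near, and the distance is a description. Naaa lay 0.155 from C1qa, which was its second nearest of 15257 genes, 0.359 from Postn and 1.99 from Cd3e. Its 5 nearest named genes were Cd44, the hyaluronan receptor (0.147), C1qa, C1qb (0.159), the endosomal RNA sensor Tlr8 (0.180) and the C-type lectin gene Clec4a1 (0.186). Macrophages express each of them, Cd44 among many other cells.

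Basp1 lay 0.283 from C1qa, at rank 17, and 0.404 from Postn, at rank 91. Its nearest genes were Cotl1, which encodes an actin-binding protein (0.124), Cd4 (0.154), the leukocyte gene Lrrc25 (0.162), Pld4, a lysosomal nuclease of myeloid cells (0.194), and the dicarboxylate transporter gene Slc13a3 (0.202). Cd4 is a T cell gene, yet it had 42.4 to 92.5 normalized counts in controls and 333, 401 and 683 in ICI-myocarditis, without the wide control spread of Cd3e.

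Glipr2 lay 0.348 from C1qa, at rank 123, and 0.606 from Postn. Its nearest genes were Kbtbd11 (0.154), Phgdh, the first enzyme of serine synthesis (0.173), the histone chaperone gene Asf1b (0.183), the mitochondrial carrier gene Ucp2 (0.185) and Cmtm7 (0.190).

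Lrp8 had the most distant neighbours of the 4. They were Padi2, an arginine deiminase gene (0.315), the tubulin gene Tuba3a (0.319), the natriuretic peptide gene Nppa (0.326), Ms4a8a (0.382) and Fcer1g (0.388). Tuba3a and Ms4a8a were scarce, with Tuba3a at 0 in all 4 controls and at 12.3 to 15.3 in diseased hearts and Ms4a8a at 1.25 to 5.04 and 28.3 to 90.9. Nppa, a product of stressed heart muscle, had 6265 to 8778 normalized counts in controls and 89307, 38489 and 174572 in ICI-myocarditis 1 to 3. Nppa and Lrp8 both had replicate 2 lowest and replicate 3 highest of the diseased hearts. Glipr2, Phgdh and Cmtm7 had the same order, so it does not set this pair apart. Lrp8 was nearer to Postn (0.480, rank 32) than to C1qa (0.627, rank 146), the reverse of the other 3 genes. Among the 4, the closest pair was Basp1 and Naaa (0.296) and the most distant Lrp8 and Glipr2 (0.887).

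**Figure D3:**
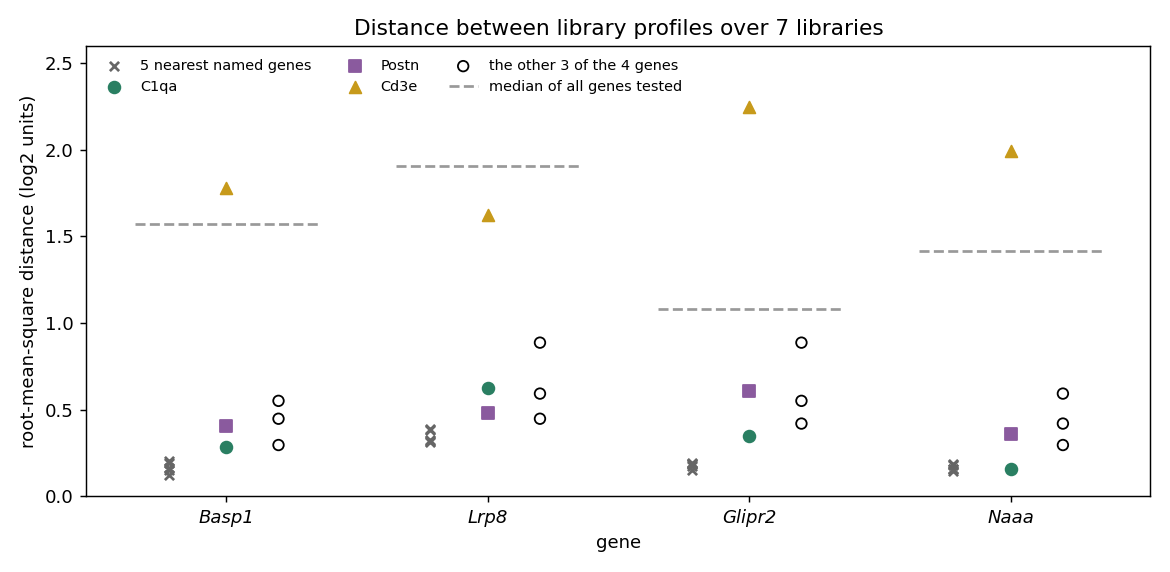
Root-mean-square distance in log2 units, over 7 libraries, from each of Basp1, Lrp8, Glipr2 and Naaa to its 5 nearest named genes, to C1qa, Postn and Cd3e, to the other 3 of the 4 genes and, as a dashed line, the median over all genes tested. C1qa is the nearest of the 3 cell genes for Basp1, Glipr2 and Naaa, and Postn for Lrp8, and Cd3e lies above the median for all but Lrp8.

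Genes that work with the 4 were read from 7 lists and tested with limma over all 15258 genes, with 15.7% called as the background. The share called lay near that background for the genes around Basp1 (18.75%), the LDL receptor family (15.4%) and the Lrp8 ligands and adaptors (13.3%). It was 33.3% of 6 CAP genes, 31.25% of N-acylethanolamine genes, 50% of lysosomal genes and 0% of Beclin 1 genes. Paired values with ± are means and SDs of normalized counts over 4 controls and 3 ICI-myocarditis libraries, and changes are limma log2 fold changes. Of 17 genes around Basp1, 16 were tested, 3 rose, none fell and 13 did not pass (median log2 fold change 0.24, against -0.02 over all genes). Those that rose were Prkcb (1.95, SE 0.299, adjusted p = 0.00454) and Prkcd (1.48, adjusted p = 0.0166), protein kinase C genes whose enzymes phosphorylate this family of membrane proteins, and Myc (2.07, adjusted p = 0.00495). Prkcd missed the threshold without control 1, control 3 or ICI-myocarditis 3 (largest adjusted p 0.0663). The relatives of Basp1 did not pass. Marcks had 5355 ± 1270 and 6490 ± 1580 (change 0.28, adjusted p = 0.549), Marcksl1 had 277 ± 80.2 and 572 ± 200 (1.03, adjusted p = 0.0517), and Gap43, the neuronal relative, had at most 9.93 in any library and was not tested. Marcksl1 passed in 5 of 18 alternatives.

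In the LDL receptor family, of 13 receptors other than Lrp8, 1 rose, 1 fell and 11 did not pass (median -0.12). Sorl1, a sorting receptor, had 971 ± 107 and 2352 ± 325 (change 1.27, adjusted p = 0.00392, SE 0.182). The scarce Lrp1b fell from 45.2 ± 15.1 to 12.7 ± 8.82 (change -1.90, adjusted p = 0.0358), a call lost without controls 1 or 3 or ICI-myocarditis 1 or 3 (up to 0.140), with library size scaling (0.0789) and by edgeR (adjusted p = 0.0585). Vldlr, the other reelin receptor, had 17158 ± 6867 and 7973 ± 3105 normalized counts (-1.10, adjusted p = 0.109), and passed as lower in 3 of 18 alternatives (DESeq2, limma-voom and without control 2). Lrp1 had 18179 ± 6071 and 38430 ± 23491 (0.96, adjusted p = 0.162, called in 1 of 18). DESeq2 called 5 of the 13.

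Of 16 ligands and adaptors of Lrp8, 15 were tested, 2 rose, none fell and 13 did not pass (median 0.15). Thbs1, which encodes the ligand thrombospondin 1, had 630 ± 142 and 7328 ± 4275 (change 3.39, adjusted p = 0.00251, SE 0.383). The kinase gene Src rose by 1.20 (adjusted p = 0.0358), which did not hold without controls 3 or 4 or ICI-myocarditis 2 or 3 (up to 0.147), without trend and robust variance (0.0503) or with a replicate block (0.101). The classical ligands did not pass with all libraries. Reln, the reelin gene, had 399 to 470 normalized counts in controls and 207, 231 and 983 in ICI-myocarditis 1, 2 and 3 (change -0.30, adjusted p = 0.729). It was thus low in 2 diseased hearts and high in the other, and without ICI-myocarditis 3 it passed as lower (change -1.02, adjusted p = 0.0315), so that the list then held 1 call higher and 1 lower. Apoe had 11279 ± 820 and 28243 ± 20651 (1.09, adjusted p = 0.107, called in 1 of 18 alternatives) and the selenoprotein P gene, listed as Sepp1, 14542 ± 4816 and 13206 ± 2934 (-0.10, adjusted p = 0.873). The reelin adaptor Dab1 had 5.04 normalized counts in control 1 and 0 in the other 6 libraries.

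For Glipr2, 6 of the 13 other CAP genes were tested, 1 rose, 1 fell and 4 did not pass, and 6 of the untested genes were at 0 in every library. Glipr1, first described in glioma, had 14.1, 70.3, 34.6 and 21.3 normalized counts in controls and 279, 233 and 389 in diseased hearts (change 3.28, adjusted p = 0.00464, SE 0.506). As for Glipr2, control 2 and ICI-myocarditis 3 were the highest of their groups, and ICI-myocarditis 2 was the lowest diseased heart. Lrp8 and Nppa shared that order of the diseased hearts. Crispld1 fell by 1.24 (adjusted p = 0.0227), which was lost without control 3 or ICI-myocarditis 2 or 3 (up to 0.0898), with library size scaling (0.0836) or with a replicate block (0.0668). The more abundant Pi16 and Crispld2 did not pass (0.43 and -0.03, adjusted p = 0.344 and 0.972). Of 15 tested genes of the Beclin 1 complex and early autophagy, 0 were called by limma or by edgeR, 1 by limma-voom and 2 by DESeq2, with 3 at an unadjusted p under 0.05 and a median of -0.07. Without control 2, 2 were called, and without control 4, 1.

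Around Naaa, 16 of 20 genes of N-acylethanolamine metabolism and sensing were tested, 4 rose, 1 fell and 11 did not pass (median 0.09). Asah1, the acid ceramidase gene and closest relative of Naaa, had 1301 ± 225 and 2819 ± 892 (change 1.09, adjusted p = 0.0167, SE 0.241). Faah, whose product breaks down the same lipids outside the lysosome, rose from 24.4 ± 24.1 to 129 ± 30.1 (2.71, adjusted p = 0.0143). Ptgs2, the cyclooxygenase 2 gene, rose by 2.89 (adjusted p = 0.00316) and the cannabinoid receptor gene Cnr2 by 2.10 (adjusted p = 0.0103). Napepld, the synthetic enzyme, had 211 ± 38.7 and 203 ± 20.2 normalized counts (-0.04, adjusted p = 0.938). The lipid carrier gene Fabp5 fell by 0.84 (adjusted p = 0.0169). The list held 5 calls with all libraries, 2 without ICI-myocarditis 3 and 8 without control 2. Asah1 was lost without control 1 or ICI-myocarditis 3, Faah without ICI-myocarditis 3, and Fabp5 without control 3 or ICI-myocarditis 2 or 3 (up to 0.0783), with library size scaling (0.0866) or with a replicate block (0.111).

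Other lysosomal genes rose in part. Of 22, 11 rose, none fell and 11 did not pass, with a median log2 fold change of 0.81. Those with low p-values included Ctss (4.29), Npc2 (1.82), Ctsz (2.02), Gla (1.65) and Man2b1 (1.40), with adjusted p from 0.00251 to 0.00693. These 5 remained called in each of 18 alternatives. Abundant lysosomal genes such as Ctsd (0.08, adjusted p = 0.910) and Lamp1 (0.09, adjusted p = 0.880), named after their values were seen, did not pass. Without ICI-myocarditis 3 the count was 7.

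**Figure D4:**
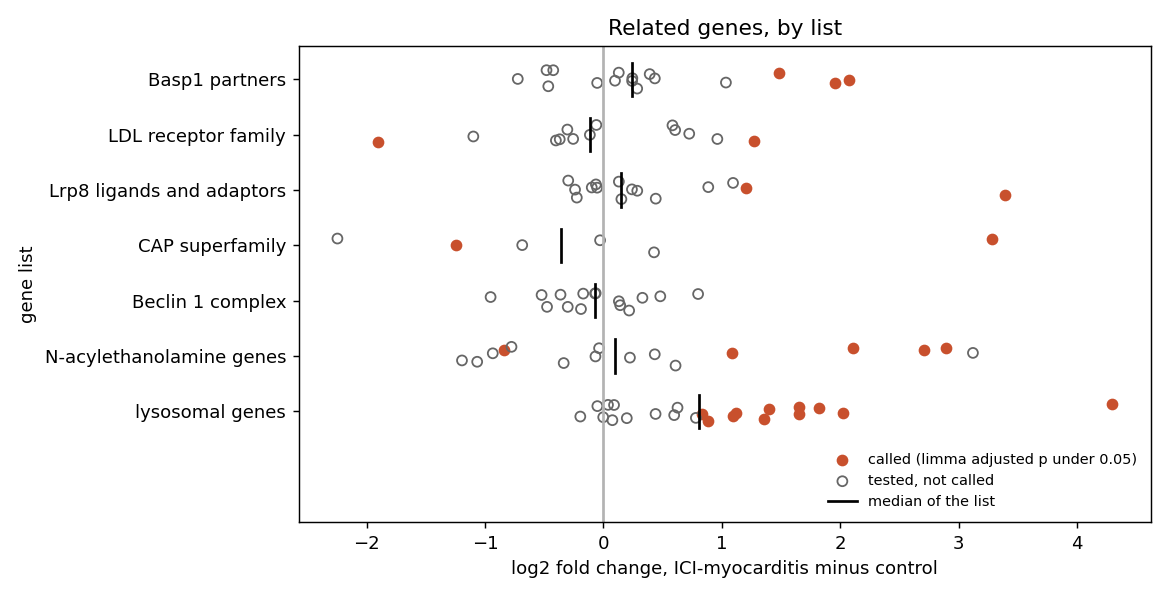
Log2 fold change (ICI-myocarditis minus control) of each tested gene in 7 lists of genes related to Basp1, Lrp8, Glipr2 and Naaa, with filled points for genes called by limma at an adjusted p under 0.05, open points for the others and a bar at the list's median. The medians of the first 6 lists lie between -0.36 and 0.24, and that of the lysosomal list lies at 0.81.

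Markers of some cells that the ventricle could hold rose as the 4 genes did, while others fell or mostly did not pass. Their part in the changes was not tested. The calls in these marker lists stand beside 15.7% called over all genes tested, 11.7% higher and 4.00% lower. With 12.5% and 20% of tested members called, the fibroblast and skeletal muscle lists lay near that share. Of 12 macrophage genes 9 rose and 1 fell, with sums of 17469 to 22847 normalized counts in controls and 60611 to 92165 in ICI-myocarditis. The macrophage gene that fell was Cd163 (-0.92, adjusted p = 0.00795), while Mrc1 rose (0.79, adjusted p = 0.0395). Mertk and Cd14 did not pass (0.94 and 0.09, adjusted p = 0.144 and 0.860). All 12 T cell genes rose. Of 12 matrix genes 10 rose, with sums of 87229 to 140467 and 219297 to 312994, while of 8 fibroblast identity genes 1 rose, with sums of 62699 to 106286 and 59350 to 82644. Of 10 dendritic cell genes 6 rose, with sums of 2345 to 6284 and 5946 to 10282 that overlapped through control 2.

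Basp1 and Lrp8 are best known from neurons, and of 12 nerve and Schwann cell genes 9 were tested, 3 rose and 2 fell, with sums of 850 to 1001 and 1434 to 2857 normalized counts and Th at 0 in every library. Of 6 platelet genes 1 rose and 1 fell, with sums of 915 to 1331 and 885 to 1203. Of 5 B cell genes tested 2 rose (sums 65.1 to 150 and 265 to 549), as did 1 of 3 neutrophil genes (48.4 to 210 and 320 to 876) and 1 of 5 skeletal muscle genes (4382 to 14133 and 6726 to 12225). Endothelial and mural genes fell, 4 of 8 in each list, with sums of 31688 to 82069 and 22925 to 30361 for the former and of 54349 to 74810 and 25106 to 35878 for the latter. As a percent of normalized counts, the endothelial sums overlapped, at 0.0848% to 0.318% and 0.0802% to 0.111%. The endothelial count was 2 without control 1, control 3 or any 1 of the ICI-myocarditis libraries and 7 without control 4, and the mural count was 2 without control 1 or ICI-myocarditis 2 and 1 without control 3 or ICI-myocarditis 3. Without ICI-myocarditis 3 no B cell, neutrophil or skeletal muscle gene was called, and nerve and Schwann cell calls went from 5 to 2. The last went to 3 without control 1, control 3 or ICI-myocarditis 2, B cell calls to 1 without control 1 or ICI-myocarditis 1 or 2, and platelet calls to 1 without control 3 or ICI-myocarditis 2 or 3. With 1 library left out, the skeletal muscle call held only without control 2 or ICI-myocarditis 1. Matrix calls numbered 6 without control 3 or ICI-myocarditis 2. No cardiomyocyte gene of 10 was called by limma or edgeR, while limma-voom called 2 and DESeq2 3, and 2 had an unadjusted p under 0.05. Without control 2, limma called 1, as lower.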

How the data were processed

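RNA from the ventricles of 4 control and 3 ICI-myocarditis libraries was sequenced as 150-base pairs from a stranded total RNA kit, per the labels' protocols. The submitters' processing notes name STAR 2.7.3 and GRCm38 (mm10). The counting program, its annotation and its use of strand are not given in the sources used here. For each library the authors deposited a signal, the reads of a gene over the library's size factor, as the values themselves show. The authors' deposited table also holds log2 fold changes with standard errors, a test score and p-values, of which only fold changes of the 4 genes were used. Every value up to 1000 reads was a whole multiple of the smallest in its column within 0.01 (100% in all 7 libraries), so reads were recovered. In control 1 that step was 1.01, close to 1, and its whole multiples are a weaker sign. Rows with names turned into dates numbered 27.

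limma 3.58.1 (R 4.3.3; trend, robust) was run on log2(normalized count + 1) for the 15258 genes that reached 10 normalized counts in 3 or more libraries, adjusted by Benjamini-Hochberg over all of them with a threshold of 0.05. edgeR 4.0.16 (quasi-likelihood) and DESeq2 1.42.0 on recovered reads were alternatives and called 2076 and 3441 genes where limma called 2397. Fits were also run on simulated libraries in which 200 genes changed, as many up as down, and no library stood apart. The present data differ on both points, so the simulation does not vouch for the calls here. Reads carry no molecular identifiers, so Poisson intervals cover counting error only. The 4 genes and all lists were chosen with earlier results of these data known. Named genes were the 4, C1qa, Postn and Cd3e, the 5 nearest profiles of each (predicted genes and dates passed over), up to 6 called members of each list by lowest p, and fixed relatives and ligands. The marker lists are given as counts and sums. Rubcn and Ly6g matched no row. Some genes that this rule would name are not reported here.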

Additional observations from a re-analysis of the deposited data

Results flagged for a closer look

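Among 56 genes named or considered, 1 had a control library whose gap to the next exceeded Dixon's 95% critical share of the range for 4 samples, where chance flags about 1 in 20. In Padi2, the nearest named gene to Lrp8, control 2 lay at 103.6 normalized counts against 43.5 to 50.4 in the other controls, a gap of 0.832 of the range on the log2 scale. The 3 ICI-myocarditis libraries were at 505, 531 and 1026. None of the 4 genes had such a library.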

How the results depend on the processing

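Over 18 alternatives the log2 fold changes ran from 2.82 to 3.19 for Basp1 and 3.37 to 3.99 for Lrp8. They ran from 1.93 to 2.16 for Glipr2 and 2.44 to 2.91 for Naaa. Every shift was smaller than the spread between libraries. Leaving out a library could not reverse the direction, since the genes were chosen for a gap between the groups. The filter, trend and robust settings leave a difference of means unchanged. The replicate block gave the same values as leaving out control 4. The 2397 calls over all genes became 4038 with limma-voom and 1080 to 3345 when 1 library was left out (lowest without ICI-myocarditis 3, highest without control 2). The LDL receptor family list had 2 calls, and 1 with a minimum of 50, with library size scaling or with edgeR, 5 with DESeq2, 4 with limma-voom and 1 to 3 without 1 library. The ligand and adaptor list had 2 calls, 4 with DESeq2, 1 without trend and robust variance and 1 to 2 without 1 library, of which 1 was lower without ICI-myocarditis 3. The CAP list had 2 calls, 1 with library size scaling and 1 to 2 without 1 library. The Beclin 1 list had 0 calls, 1 with a pseudocount of 5 or limma-voom, 2 with DESeq2 and 0 to 2 without 1 library. The N-acylethanolamine list had 5 calls, 8 with DESeq2 or limma-voom and 2 to 8 without 1 library. The lysosomal list had 11 calls and 7 to 11 without 1 library, and the Basp1 list 3 and 2 to 4. Library size scaling moved the median log2 fold change of all genes to 0.13. For Lrp8, control values of 15 to 25 reads limit the precision. Other causes of these shifts were not tested.

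The titles number both groups alike. Correlations over genes of same-numbered libraries were -0.271, -0.206 and -0.078, within the -0.477 to 0.451 of the other pairs. They use deviations from means of 4 and 3 libraries, so they cannot decide whether the numbers pair libraries. With a replicate block, in which control 4 has no partner and drops out of the contrast, 1780 genes were called, and the ligand and adaptor list and the CAP list had 1 call each.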
